A study of Mus musculus with 4 samples.

Results

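Notch receptors and their ligands, 10 genes in all, were examined in corticotropes and melanotropes, the Pomc-expressing endocrine cells of the mouse pituitary. The genes were chosen by name as the 4 receptors (Notch1, Notch2, Notch3 and Notch4) and 6 ligands or ligand relatives (Dll1, Dll3, Dll4, Jag1, Jag2 and Dlk2). They account for 11 of 33072 RefSeq transcripts and 10 of 24063 genes in the deposited table, and only Dlk2 has more than 1 transcript there. Both came from C57B6 mice of a POMC-EGFP line, in which a fluorescent protein marks Pomc-expressing cells. The lobes of the pituitary were dissected apart and fluorescent cells sorted from each, corticotropes being the Pomc cells of the anterior lobe and melanotropes those of the intermediate lobe, and both groups carried the same transgene and received no treatment that the labels name. Each cell type had 2 libraries of ribosome-depleted total RNA, and the labels state neither age nor the number of animals behind a library. The p-values therefore measure only the spread between these libraries, which may be technical.

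Notch receptors are membrane proteins that bind ligands of the Delta-like and Jagged families on neighbouring cells, through the DSL domain of the ligand. Binding exposes the receptor to cleavage by ADAM proteases and then by γ-secretase, and the freed intracellular domain joins RBPJ and a Mastermind protein to switch on target genes, above all repressors of the Hes and Hey families. In the pituitary, Notch signalling is known for keeping progenitors undifferentiated.

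The libraries carried their labelled identities. Melanotropes had 57.2 and 56.0 FPKM of Pax7, the melanotrope selector factor, against 9.45 and 7.97 in corticotropes, while Crhr1, the CRH receptor, stood at 8.13 and 7.03 against 125.5 and 138 FPKM. Pomc was far above every other gene discussed here in all 4 libraries, at 30312 to 31408 FPKM in corticotropes and 74915 to 83913 in melanotropes. FPKM, reads per kilobase of transcript scaled to library depth, are given after rescaling between libraries unless called deposited, with the 2 corticotrope libraries before the 2 melanotrope libraries and replicate 1 before replicate 2. Marker lists of other cells differed too. The summed level of 7 genes of other anterior lobe lineages (Gh, Prl and others) was 5776 and 5629 FPKM in corticotropes and 13.6 and 62.3 in melanotropes, that of 11 endothelial genes 17.8 and 27.5 against 9.81 and 6.99, and that of 9 progenitor and folliculostellate genes 51.5 and 66.3 against 39.5 and 46.3. No gene of these lists was at 0 in all libraries, and defining markers of endothelium (Cdh5, at 0.622 and 0.956 against 0.227 and 0.136 FPKM) and of folliculostellate cells (S100b, at 0.156 and 0.165 against 0.238 and 0.161) were below 1 FPKM. Only 3 of the 11 endothelial genes and 3 of the 9 progenitor and folliculostellate genes stayed below 1 FPKM in every library. Plvap, the endothelial marker with the highest level, was at 6.02 and 9.83 against 2.06 and 1.23 FPKM. In the progenitor and folliculostellate list, Cyp2f2 was at 21.0 and 26.8 against 11.1 and 14.1 FPKM. Sox2 of that list was at 12.9 and 15.8 against 22.8 and 25.8. In bulk RNA, fewer cells of a type and less RNA per cell cannot be told apart.

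Of the Notch genes, 1 was higher in melanotropes, the ligand Dll3, and 2 were lower, the receptor Notch2 and the ligand Dll1. Jag2, the ligand with the highest mean level, stood at nearly the same level in both cell types. The call rests on limma with a Benjamini-Hochberg adjusted p under 0.05 among 13043 genes that reached 1 FPKM in at least 2 libraries, and 6 of the 10 Notch genes were among them. At that floor 36.2% of all genes were called, 18.7% higher and 17.5% lower in melanotropes, so 3 called of 6 is not set apart from the background by the count alone. Dll1 reached the floor through the corticotrope libraries only, so the test set favoured a difference there. Without a floor all 10 genes were tested and the same 3 were called, in the same directions, where 13.0% of all genes were called (6.08% higher and 6.95% lower). The libraries of the cell types did not overlap for 7 of the 10 genes, against 53.8% of all genes and 70.4% of those at the floor. Among the 7, the closest libraries of Dlk2 stood at 0.4993 against 0.4991 FPKM and those of Dll4 at 0.452 against 0.459. The deposited values carry 2 decimals, so rounding alone could produce gaps this narrow. On the deposited scale, without rescaling, 1 Notch gene was called higher and 5 lower of 7 tested, beside 939 higher and 8787 lower of all genes, in place of 2442 and 2284.

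**Figure D1:**
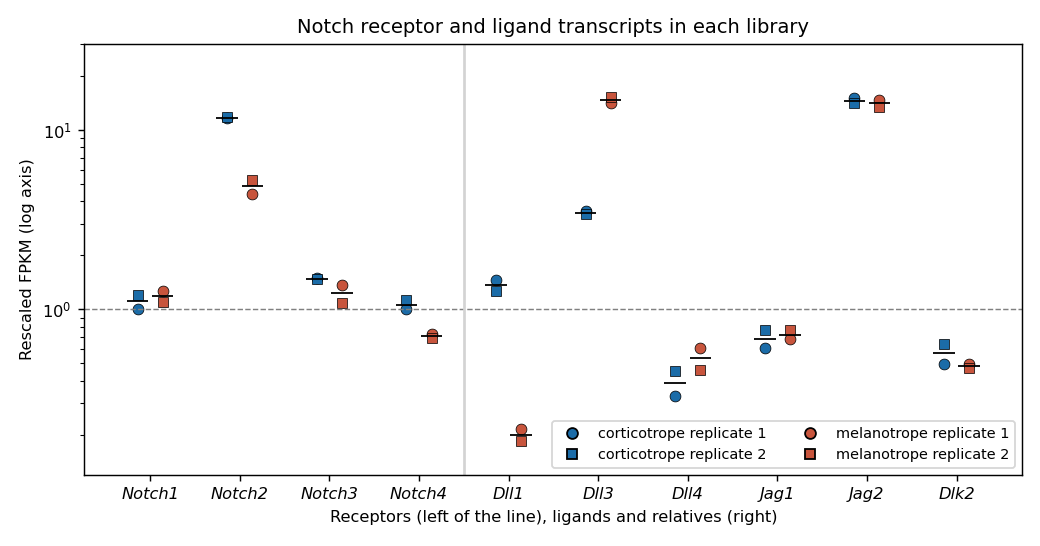
Rescaled FPKM (log axis) of the 10 Notch genes in each of the 4 libraries, with circles for replicate 1, squares for replicate 2 and black bars for the mean of each cell type. The dashed line marks 1 FPKM. Dll3 rises from about 3.46 to 14.6 FPKM on average, Notch2 and Dll1 fall, and Jag2 lies near 14 FPKM in every library.

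The stretches before the starts of the 2 genes that were lower in melanotropes are shown, since they let the letters beside a receptor and a ligand that differ in the same direction be compared. Sequences are from RefSeq on GRCm38.p6, 5′ to 3′ on the strand of the gene, and capitals mark matches to the E-box CANNTG, the motif of basic helix-loop-helix factors. They lie at chr3:98013288-98013537 (plus strand) for Notch2 and chr17:15375977-15376073 (minus strand) for Dll1, and each ends where an annotated transcript of the gene begins in RefSeq or GENCODE M21. The Notch2 stretch has 250 bases and ends at the RefSeq start. That of Dll1 has 97 bases and ends at a GENCODE start upstream of the RefSeq start at 15375823. The 2 stretches thus differ in length and in distance from the RefSeq start.
Notch2: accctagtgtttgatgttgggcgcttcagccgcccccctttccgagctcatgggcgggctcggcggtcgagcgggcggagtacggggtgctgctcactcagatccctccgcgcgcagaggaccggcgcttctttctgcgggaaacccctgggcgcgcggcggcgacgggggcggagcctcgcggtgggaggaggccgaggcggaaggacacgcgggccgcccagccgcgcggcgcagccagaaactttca
Dll1: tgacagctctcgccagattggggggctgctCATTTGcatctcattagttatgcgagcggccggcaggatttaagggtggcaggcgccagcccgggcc
All 10 genes matched the RefSeq table, with 11 windows that run from 250 bases before to 50 bases after a start. The Dll3 window held 2 E-boxes, CACCTG beginning at -228 and CAGCTG beginning at -7 from the RefSeq start. The Dll1 window held 1, CATTTG at -220 from its RefSeq start. The Notch2 window held 0, where 72.3% of all 32851 windows of that length hold at least 1. The core letters TGGGAA of the RBPJ motif, searched on both strands, were in 0 of the 11 windows, and 25.6% of all windows hold them. The windows also differed in CpG content, with 11 CpG in that of Dll3, 24 in that of Dll1, 41 in that of Notch2 and 63 in that of Jag2, against a median of 7. The Jag2 window held more CpG than 99.97% of all windows. These matches describe letters and not bound sites. GENCODE M21 places an untranslated region of Dll3 at the upstream end of its window, so no Dll3 stretch is shown. That region may include the E-boxes, which was not tested.

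Among the receptors, Notch2 (NM_010928, 34 exons, chromosome 3, 98013538 to 98150367, plus strand) had the highest level in every library. It stood at 11.6 and 11.7 FPKM in corticotropes and 4.40 and 5.28 in melanotropes. Both melanotrope libraries lay below both corticotrope libraries by several times the spread within a cell type. The mean was 11.7 ± 0.118 against 4.84 ± 0.621 FPKM (SD, n = 2 each), 2.41-fold higher in corticotropes, with a log2 fold change on log2(FPKM + 1) of -1.12 (SE 0.10, limma adjusted p = 5.28e-04). The values rest on 8896 to 32579 implied reads, counts derived from the spacing of low FPKM values. A gene model on the same strand, Gm42820, overlaps 5.15% of its exon bases, and reads there cannot be told apart. The marker sums of other anterior lobe lineages and of endothelium were also lower in melanotropes, and their part in the Notch2 difference was not tested.

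Notch1 (NM_008714, chromosome 2, 26457902 to 26503822, minus strand), the receptor studied most in T cells and progenitors, was at 1.01 and 1.21 against 1.26 and 1.10 FPKM. Its cell types overlapped, the log2 fold change was 0.05 (SE 0.10, limma adjusted p = 0.739), and the sign turned to -0.21 on the deposited scale. Notch3 (NM_008716, chromosome 17, 32120893 to 32166852, minus strand), known from vascular smooth muscle, was at 1.49 and 1.47 against 1.37 and 1.09 FPKM. The melanotrope libraries lay below the corticotrope libraries, but the log2 difference of -0.15 (SE 0.11) was not called (limma adjusted p = 0.303) except on the deposited scale (0.0176; range over 15 alternatives 0.0176 to 0.79). Notch4 (NM_010929, chromosome 17, 34564295 to 34588543, plus strand), the endothelial receptor, was at 0.999 and 1.13 against 0.726 and 0.694 FPKM. It missed the expression floor by its value in corticotrope replicate 1, and tested without a floor its log2 difference was -0.27 (SE 0.05, limma adjusted p = 0.0745). The summed level of the 11 endothelial markers was lower in the same melanotrope libraries, as given above, and its part in the Notch4 difference was not tested. Ordered by mean level over the 4 libraries the receptors ran Notch2, Notch3, Notch1 and Notch4. In melanotropes the ranges of Notch3 and Notch1 overlapped, and in corticotropes those of Notch1 and Notch4 did.

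Shares within a library do not depend on scaling between libraries. Notch2 made up 76.8% and 75.5% of summed receptor FPKM in corticotropes and 56.7% and 64.6% in melanotropes. Notch1 made up 6.68% and 7.77% against 16.2% and 13.5%. The ratio of Notch2 to Notch1 was thus 11.5 and 9.72 for corticotropes against 3.496 and 4.79 for melanotropes, with no overlap. With 2 libraries against 2 an exact two-sided permutation test cannot go below p = 0.333, which is the value for this ratio and for the others given here. The summed receptor level was 15.1 and 15.5 FPKM in corticotropes and 7.76 and 8.17 in melanotropes.

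Among the activating ligands, Jag2 (NM_010588, 26 exons, chromosome 12, 112908590 to 112929495, minus strand) was at 15.0 and 14.1 FPKM in corticotropes and 14.6 and 13.4 in melanotropes. The cell types overlapped, and the log2 fold change was -0.05 (SE 0.09, limma adjusted p = 0.678). It exceeded the mean level of 82.2% of all genes. Jag2 was called lower on the deposited scale alone (log2 fold change -0.51, limma adjusted p = 0.00883; range over 15 alternatives 0.00883 to 0.997). The genes closest to it in log2(FPKM + 1) over the 4 libraries were Cd2ap, Dus1l and Dab2ip, at Euclidean distances of 0.05 to 0.06.

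Dll1 (NM_007865, 11 exons, chromosome 17, 15367354 to 15375823, minus strand), a ligand of the Delta-like family, was at 1.47 and 1.27 FPKM in corticotropes and 0.216 and 0.186 in melanotropes. Both corticotrope libraries lay far above both melanotrope libraries. The means were 1.37 ± 0.139 and 0.201 ± 0.0210 FPKM (SD, n = 2 each), a ratio of 6.81, and the log2 fold change, which understates a difference at so low a level, was -0.98 (SE 0.10, limma adjusted p = 9.16e-04). The melanotrope values rest on 142 and 120 implied reads, and those of corticotropes on 702 and 1148. A long noncoding gene on the other strand, A930024N18Rik, overlaps 17.4% of its GENCODE exon bases. Strand use in counting is unstated in the headers and labels, so reads of the pair cannot be told apart there. The same limit holds for Notch1 (0610009E02Rik 11.3%, Gm13568 4.36%), Notch3 (Gm17276 6.09%), Dll4 (Gm14207 5.71%) and Dlk2 (Abcc10 3.34%). Abcc10 was at a higher level than Dlk2 in every library. The endothelial and other-lineage marker sums given above were also lower in melanotropes, and their part in the Dll1 difference was not tested.

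The other activating ligands were low in both cell types. Jag1 (NM_013822, chromosome 2, 137081451 to 137116520, minus strand) was at 0.606 and 0.765 against 0.681 and 0.768 FPKM, with overlapping cell types. Dll4 (NM_019454, chromosome 2, 119325784 to 119335666, plus strand), a ligand of sprouting endothelium, was at 0.327 and 0.452 against 0.613 and 0.459 FPKM. Melanotropes lay above corticotropes for Dll4 by a narrow margin. On the deposited scale, at 0.4 and 0.52 against 0.54 and 0.37 FPKM, the cell types overlapped for Dll4. The endothelial marker sum was lower in melanotropes, and its part in the Dll4 values was not tested. Tested without a floor, neither was called (limma adjusted p = 0.889 for Jag1 and 0.386 for Dll4). Their values rest on 158 to 1108 implied reads.

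Dll3 (NM_007866, 9 exons, chromosome 7, 28293555 to 28301785, minus strand) is the divergent member of the Delta-like family, known to inhibit Notch inside the cell that makes it, and is made by neuroendocrine tumours. It was at 3.53 and 3.39 FPKM in corticotropes and 14.03 and 15.2 in melanotropes. Both melanotrope libraries lay far above both corticotrope libraries. The mean was 3.46 ± 0.0981 against 14.6 ± 0.830 FPKM (SD, n = 2 each), 4.23-fold higher in melanotropes, with a log2 fold change of 1.81 (SE 0.08, limma adjusted p = 6.30e-05). This was the largest absolute change on log2(FPKM + 1) among the 6 Notch genes at the floor, though the ratio of means was larger for Dll1, and with a pseudocount of 0.1 Dll1 stood at -2.28 and Dll3 at 2.05. The values rest on 1066 to 6178 implied reads. Markers of the posterior lobe and glia summed to 24.9 and 26.4 against 31.2 and 36.2 FPKM, but their members went both ways. Of the 5 at the floor, 3 were called higher in melanotropes and 1 lower. The lower one, Vim, was the largest part of the corticotrope sum, with a mean of 19.8 against 10.8 FPKM. The means of the higher ones were 1.82 against 12.6 FPKM for Slc1a3, 0.0171 against 2.83 for Rax and 1.71 against 5.23 for Mbp. The progenitor factor Sox2 stood at 12.9 and 15.8 against 22.8 and 25.8. Of the 6 progenitor and folliculostellate markers at the floor, Sox2 and Sox9 were higher and the other 4 lower, and that list's sum was lower in melanotropes. The part of either list in the Dll3 difference was not tested. Dll3 was the only Notch gene past an FDR of 0.05 in the authors' deposited table (log2 fold change 2.02, FDR 0.0252), where Notch2 had -1.33 and 0.341. Dll1 had -3.14 there and did not pass either, unlike in the test used here. That table lists 0.06 for Notch1, Notch4 and Jag1 alike, all with an FDR of 1. On the deposited scale Notch4 nevertheless stood at 1.22 and 1.3 against 0.64 and 0.56 FPKM. The reason for the shared value was not tested. The genes closest to Dll3 over the 4 libraries were Pde1c, Ildr2 and Anks6, at Euclidean distances of 0.24 to 0.28. Pde1c, a calcium-dependent phosphodiesterase, was at 4.199 and 3.77 against 13.7 and 15.5 FPKM.

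Dlk2 (chromosome 17, 46297928 to 46303271, plus strand, for NM_001286013), a relative of the ligands that lacks the DSL domain, was at 0.499 and 0.643 against 0.499 and 0.471 FPKM. Its other transcript, NM_001286028, was at 0.540 and 0.678 against 0.533 and 0.496. Replicate 1 stood at nearly the same level in both cell types, and without a floor Dlk2 was not called (limma adjusted p = 0.502).

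Within the ligands the balance between Jag2 and Dll3 differed. Jag2 made up 71.7% and 70.5% of summed FPKM of the 5 DSL ligands in corticotropes and 48.5% and 44.6% in melanotropes. Dll3 made up 16.9% and 17.0% against 46.5% and 50.7%. Dll1 fell from 7.0004% and 6.36% to 0.715% and 0.619%. The ratio of Jag2 to Dll3 was 4.25 and 4.15 in the corticotrope libraries against 1.04 and 0.881 for melanotropes, where the FPKM ranges of the pair overlapped. Dll3 exceeded Dll1 by 2.41 and 2.67 times in corticotropes and by 65.1 and 81.8 times in melanotropes. Summed DSL ligand FPKM, Dll3 included, was 20.9 and 19.9 against 30.2 and 30.02. On the deposited scale the sums were 25.6 and 22.9 against 26.6 and 24.2, and the cell types overlapped.

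**Figure D2:**
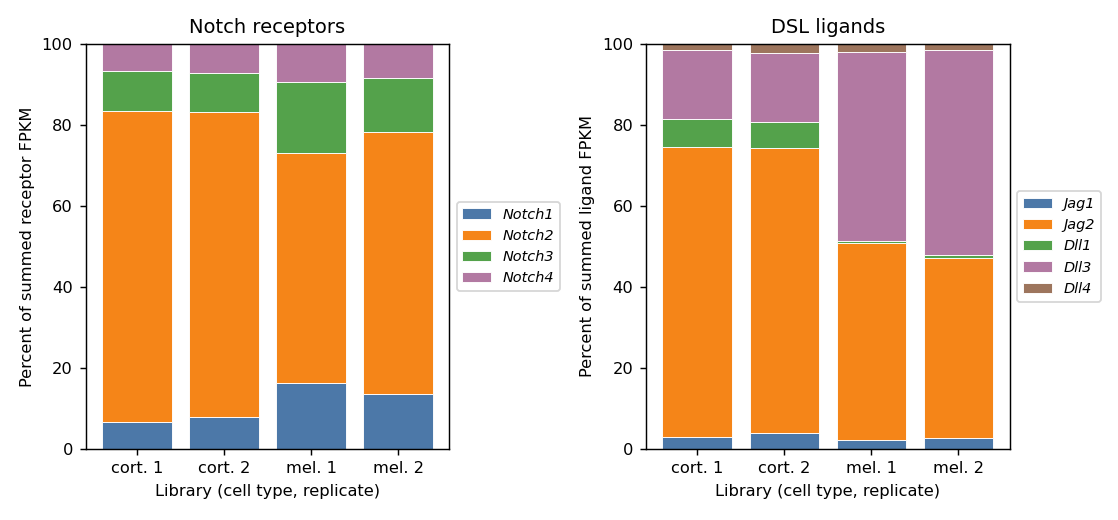
Percent of summed receptor FPKM (left) and of summed DSL ligand FPKM (right) taken by each gene, 1 bar per library (cort., corticotropes; mel., melanotropes; numbers are replicates). Notch2 takes 75.5% to 76.8% of the receptor sum in corticotropes and 56.7% to 64.6% in melanotropes, and Dll3 takes 46.5% and 50.7% of the ligand sum in melanotropes.

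Genes that act with the receptors were taken from lists by role, 72 genes in the table besides the 10 above. Of the 63 at the floor, 14 were called higher and 12 lower in melanotropes, with a median log2 fold change of 0.05 against 0.01 over all genes tested. Over all genes at the floor 18.7% were called higher and 17.5% lower, which is the background for each list below. On the deposited scale the split was 5 higher and 40 lower, and the lists below are to be read with that shift, a median of -0.42 over all genes. Without a floor 7 of the 72 were called higher and 6 lower, where 6.08% and 6.95% of all genes were.

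Targets of Notch signalling were called in both directions. Of the 12 targets listed, Notch3 again among them, 7 reached the floor, 1 of them called higher and 4 lower, with a median log2 fold change of -0.58. Without a floor all 12 were tested, and 2 were higher (Hes7 and Hes2) and 3 lower (Heyl, Hey2 and Bhlhe41). Hes2 was near absent in both cell types, at 0.0164 and 0.0174 against 0.0454 and 0.0496 FPKM, so little weight rests on its call. Heyl, a Hey family repressor also known from mural cells, was at 1.62 and 1.95 against 0.238 and 0.248 FPKM (log2 fold change -1.16, limma adjusted p = 5.77e-04). Hey2 was at 1.56 and 1.71 against 0.510 and 0.558 FPKM (-0.78, 0.00183 likewise). Both reached the floor through corticotropes only. Hey1 was at 6.38 and 7.21 against 2.89 and 4.55 FPKM and was called (limma adjusted p = 0.0197), but not without a floor (0.164). Bhlhe41, a circadian repressor of the same structural class, was lower at 8.603 and 8.49 against 5.26 and 5.50 FPKM. The target that rose was Id4, an inhibitor of helix-loop-helix factors, at 9.68 and 14.6 against 25.4 and 31.3 FPKM (not called without a floor, limma adjusted p = 0.102). Hes1, the target most used as a readout of Notch activity, was at 2.71 and 3.95 against 2.53 and 3.85 FPKM, with replicates further apart than cell types. Hes5 was near absent, at 0.237 and 0.148 against 0.113 and 0.0496 FPKM. Hes7 lay under the floor at 0.221 and 0.252 against 0.851 and 0.979 FPKM, and was higher when tested without one. The 10 mural and fibroblast markers summed to 9.75 and 11.4 against 18.3 and 15.7 FPKM, with 2 called higher (Dcn and Lum) and 1 lower of 4 at the floor. Of these, Rgs5 was lower in the same melanotropes (1.70 and 1.87 against 0.726 and 0.967 FPKM) and Pdgfrb was at 0.278 and 0.304 against 0.352 and 0.310. The endothelial marker sum was lower as given above, and the part of either list in the Hey gene differences was not tested.

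In the nuclear complex, 3 of 16 genes at the floor were higher and 2 lower, with a median log2 fold change near 0. Rbpj, the DNA-binding partner of all 4 receptors, was at 5.69 and 5.81 against 5.98 and 6.02 FPKM and was not called (limma adjusted p = 0.639). Maml3, a Mastermind coactivator, was higher in melanotropes at 5.58 and 5.996 against 17.8 and 18.4 FPKM (log2 fold change 1.49, limma adjusted p = 9.86e-05). Maml2 was higher too, at 1.65 and 1.57 against 2.70 and 2.16 FPKM, but it lost its call in 6 of 15 alternatives (limma adjusted p = 0.158 without a floor), among them those without corticotrope replicate 1 (0.0582), corticotrope replicate 2 (0.0833) or melanotrope replicate 1 (0.211). Maml1, at 3.41 and 3.42 against 3.68 and 3.94, was not called. The Groucho corepressors, which Hes proteins recruit, went both ways. Tle3 was higher at 5.43 and 6.12 against 29.5 and 33.2 FPKM (log2 fold change 2.25, limma adjusted p = 5.63e-05), and Tle1 and Tle2 were lower, Tle2 at 6.34 and 5.99 against 3.88 and 3.43 FPKM. Tle1 was not called without a floor (limma adjusted p = 0.0710) or without melanotrope replicate 2 (0.0584). On the deposited scale 2 genes of this list were higher and 12 lower, and without melanotrope replicate 2 only 1 was lower, with 3 higher.

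Among genes that modify or cut the receptor, 6 were called, all higher in melanotropes at the rescaled level. Of 8 glycosylation genes, all at the floor, 4 were higher and 0 lower, with a median log2 fold change of 0.20. Lfng, a Fringe glycosyltransferase that shifts the receptor's preference between ligands, was at 0.614 and 0.973 against 2.45 and 2.94 FPKM (log2 fold change 1.05, limma adjusted p = 0.00210), and Rfng and Pofut1 were also higher. Lfng reached the floor through melanotropes only. Mfng, the Fringe gene with the highest level, was at 20.0 and 26.2 against 19.8 and 21.5 FPKM and was not called. None of the 8 was called without a floor, and on the deposited scale 1 was higher and 3 lower. Leaving out a library left 1 to 3 higher, with 1 without melanotrope replicate 1 and 2 without corticotrope replicate 2. Of 10 cleavage genes 2 were higher and 0 lower (median 0.12), both γ-secretase subunits. Aph1b was at 5.71 and 5.20 against 10.3 and 10.4 FPKM (log2 fold change 0.81, limma adjusted p = 9.07e-04) and Psen2 at 24.3 and 30.5 against 42.02 and 49.04 (not called without a floor, limma adjusted p = 0.105), and on the deposited scale this list had 1 higher and 5 lower. With replicate number as a block 3 cleavage genes were higher and 1 lower. Reads of Aph1b may be shared with its close copy Aph1c, which was at 1.06 and 0.886 against 1.497 and 1.36 FPKM and was not called. Adam10, the protease that makes the cut at the cell surface, was at 7.43 and 5.74 against 7.57 and 7.23 FPKM and was not called.

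Ligand endocytosis and receptor turnover formed the next lists. Of 5 endocytosis genes at the floor 1 was higher, the epsin Epn2 (9.35 and 9.14 against 11.7 and 12.05 FPKM). Epn2 lost its call when any of the 4 libraries was left out (limma adjusted p from 0.0585 to 0.1004), and the list then had 1 gene called without corticotrope replicate 2 or melanotrope replicate 1, which was not Epn2, and 0 without either of the others. The list's median log2 fold change was 0.24, and on the deposited scale 0 were higher and 4 lower. Mib1, the ubiquitin ligase that activates ligands, was at 37.0 and 37.9 against 41.7 and 47.3 FPKM and was not called. With replicate number as a block 4 of the 5 were higher. Of 13 turnover genes 3 were higher and 2 lower, with Dtx1, a Deltex ligase, at 19.3 and 16.4 against 29.99 and 27.3 FPKM and the kinase gene Aak1 at 12.3 and 9.96 against 5.83 and 4.76. Dtx4 and the ubiquitin ligase Nedd4 were also higher and Dtx3 lower, and the median was 0.09. Nedd4 lost its call when any of the 4 libraries was left out (limma adjusted p from 0.123 to 0.267), as did Dtx3 (0.0729 to 0.187). None of the turnover genes was called without a floor, and on the deposited scale 0 were higher and 7 lower. Without melanotrope replicate 2 the turnover counts were 1 higher and 1 lower, without melanotrope replicate 1 they were 2 and 1, without corticotrope replicate 1 also 2 and 1, and without corticotrope replicate 2 they were 2 and 2.

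Proteins that resemble ligands or bind Notch in other ways were lower where called, 4 of 5 at the floor, with a median log2 fold change of -1.06. Dlk1, the imprinted relative of Dlk2, was at 21.4 and 22.0 against 0.544 and 0.892 FPKM (log2 fold change -3.73, limma adjusted p = 3.11e-05). The adhesion protein Cntn1 was at 33.9 and 42.6 against 3.82 and 5.73 FPKM (log2 fold change -2.78), and Nov and Egfl7 were also lower, though not without a floor. Dlk1 and Nov reached the floor through corticotropes only, so the test set favoured a difference there. Without a floor 2 of the 6 genes of this list were called lower, Dlk1 and Cntn1. Egfl7 is itself among the 11 endothelial markers, whose sum was lower in melanotropes. Dlk1 is also made by other anterior lobe lineages, whose summed markers were lower in the same libraries, and their part in its difference was not tested. Dner, a neuronal Notch-binding protein, was higher in level than any of the 10 genes above, at 64.6 and 62.8 against 71.3 and 72.3 FPKM, and was not called.

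**Figure D3:**
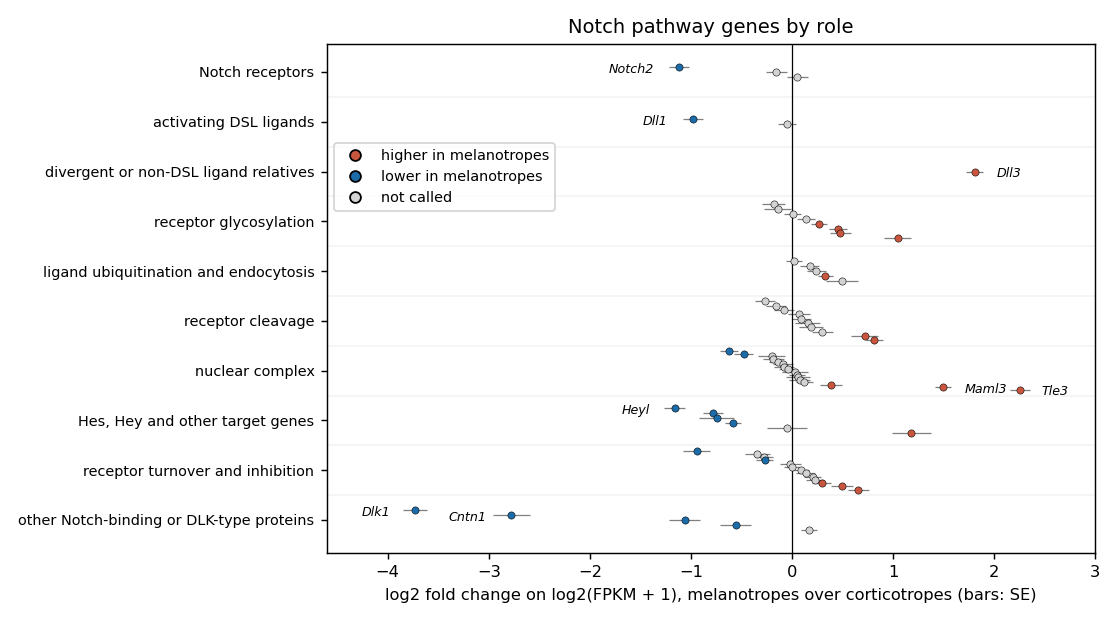
Fold change (log2 scale on FPKM + 1, melanotropes over corticotropes, bars for the standard error) of each gene at the floor, in rows by role. Red points were called higher in melanotropes, blue points lower and grey points neither. Dll3, Maml3 and Tle3 lie to the right of 1, while Notch2, Heyl, Cntn1 and Dlk1 lie to the left of -1.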

How the data were processed

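FPKM per RefSeq transcript and library were deposited by the authors, who counted reads over exons with HOMER on mm10, per the file headers. The authors' p-value, FDR and log2 fold change columns came from HOMER's getDiffExpression run on that table, per the file headers. The deposited fold column, a score here because it held 10 to the power of the authors' log2 value, and the lengths served no test beyond implied reads. TopHat, HOMER and edgeR stand in the submitters' processing notes without versions. The members and lists were chosen with earlier results of these data known.

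The 4 columns were divided by unweighted trimmed means of M values (30% of M and 5% of A trimmed on each side), 1.22 and 1.15 for corticotropes and 0.882 and 0.807 for melanotropes, because Pomc took 27.2% to 50.9% of the nearly equal column sums. The longest transcript stood for each gene. The test, on log2(FPKM + 1) of genes reaching 1 FPKM in at least 2 libraries, was that of limma 3.58.1 (R 4.3.3, variance trend, two-sided, cell type as the only term), and the median standard error was 0.10. Residual degrees of freedom were 2, those of the prior 4.02, and the script was tested on simulated data. Changes were planted there only in genes well above the floor, so low-level calls such as that of Dll1 were not covered.

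Low values of short transcripts were whole multiples of a step (100% within 0.1 read), which gave 97451520 to 187203176 implied reads per library. The step of each library was picked to make that percentage highest, so the 100% is no check on it. Unrelated steps reached at most 67.4% to 83.6%. The step gave 0.115 reads per unit of FPKM times base in corticotrope replicate 1 and 0.219 to 0.234 in the other libraries. Whether a pair counted as 1 or 2 reads is unstated in the headers and labels. Named genes were all members, up to 3 genes per list and direction with the smallest adjusted p, and for likeness the 3 nearest genes of the member with the largest change on log2(FPKM + 1) and of that with the highest level. Other list genes (Hey1, Aph1c, Hes1, Hes2, Hes5, Hes7, Rbpj, Maml1, Mfng, Adam10, Mib1, Dner, Egfl7) and the single marker genes other than Pax7, Crhr1 and Pomc were named after their values were seen. Scalings, pseudocounts, filters, transcript choices, prior variance, a replicate block and left-out libraries were run as alternatives, and a left-out library kept the genes tested and the factors.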

Additional observations from a re-analysis of the deposited data

How the results depend on the processing

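Dll3 and Notch2 kept direction and call under all 15 alternatives, and Dll1 under the 14 in which it was tested, since its mean over the libraries was below 1 FPKM. Of all genes, 9726 were called without rescaling, 3134 with no filter and 7406 with every transcript as its own row, all 3 of which changed the number tested. Of the members 6 were called without rescaling. Of the other pathway genes 45 were called without rescaling and 13 with no filter. Notch1 turned to -0.21 without rescaling and, leaving out 1 library, ranged from -0.02 to 0.12, being negative (-0.0186 and -0.00135) without corticotrope replicate 1 or melanotrope replicate 1. Jag2 turned to 0.00793 without melanotrope replicate 2 (range over left-out libraries -0.11 to 0.01). Epn2 and Nedd4 turned to -0.12 and -0.19 without rescaling. The cause of these changes was not tested. The replicate numbers are shared between cell types but nothing in the labels ties them to animals or days, and same-numbered deviations correlated at 0.526 across genes. With replicate number as a block 7004 genes and 36 pathway genes were called, and the same number of members, 3. Implied reads were at least 107 for each member in each library, and counting error was not compared with the spread between libraries.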
